A study of Mus musculus with 12 samples.

Results

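Matrix metalloproteinases (MMPs) and their tissue inhibitors (TIMPs) were followed in CT26 cells, a mouse colon carcinoma cell line, by RNA sequencing. The 10 genes are 7 MMPs (MMP2, MMP3, MMP9, MMP10, MMP13, MMP14 and MMP28) and 3 TIMPs (TIMP1, TIMP2 and TIMP3), chosen by name from the 23636 gene symbols of the table, which lists 23 MMP and 4 TIMP symbols. Cells received no treatment, CX3CL1 (a chemokine, 2 µg/ml), IFN-γ (interferon gamma, 100 ng/ml), or both CX3CL1 and IFN-γ, and RNA was prepared after 8 hours. The labels do not give the order of addition in the last group; the study's text describes CX3CL1 as following IFN-γ and also names TNF-α, which neither the labels nor the legend of the heatmap mention. Each of the 4 groups had 3 libraries, and all 12 came from the same cell line. The labels call the 3 libraries of a group biological replicates without saying whether they were separate cultures, so p-values measure the spread between these libraries.

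MMPs are zinc-dependent proteases that are made as inactive proenzymes and, once activated, cut collagens, laminins, proteoglycans and many signaling proteins. TIMPs bind the active site of MMPs and block it, so the amount of free protease depends on both sides. TIMP2 also takes part, with MMP14, in the activation of pro-MMP2 at the cell surface. Transcript levels do not show how much enzyme is secreted or active.

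Levels are given in TPM (the abundance unit of the table), which are scaled for transcript length and to the same total in each library, so levels of different genes can be set side by side. TPM hold no read depth, and the precision of each value is therefore given by the spread over 3 libraries. Differences between groups were tested with limma on log2(TPM + 1), a scale that understates the change of low genes. The 11878 symbols whose mean level over all 12 libraries reached 0.2 TPM entered the test. A gene was called at a Benjamini-Hochberg adjusted p under 0.05. Of the 10 genes, 8 passed this filter and MMP2 and TIMP3 did not. MMP3 averaged 0.0989 TPM without treatment and 0.0422 TPM with IFN-γ. It passed only through the groups with CX3CL1, at 0.573 TPM alone and 0.502 TPM with both. MMP9 averaged 0.0808 TPM without treatment and passed only through the treated groups. An exact permutation test of 3 against 3 libraries cannot go below p = 0.1, so none was run for single genes.

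The labelled cell type was checked against marker genes. EPCAM, an epithelial surface protein, was listed at 0 in all 12 libraries, and 2 of 8 epithelial markers passed the filter, mainly the keratin KRT18. Their summed level was 51.2 to 64.7 TPM without treatment, 33.6 to 44.4 TPM with CX3CL1, 35.7 to 41.8 TPM with IFN-γ and 24.9 to 33.2 TPM with both. Of 8 mesenchymal markers 6 passed, led by vimentin (VIM), with sums of 4429 to 5699, 3768 to 4472, 3168 to 4250 and 2213 to 3679 TPM in the same order. Within the mesenchymal list PDGFRA averaged 3.68, 3.46, 5.997 and 6.40 TPM and did not follow the sum. The epithelial sum was lowest with both agents, the mesenchymal sums of the 2 IFN-γ groups overlapped, and the part of either in the MMP values was not tested. T cell markers summed to at most 0.0361 TPM and endothelial markers to at most 0.0725 TPM. In bulk RNA, fewer cells of a type and less RNA per cell cannot be told apart.

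MMP13, MMP3 and MMP10 lie in this order on the plus strand of chromosome 9 (GRCm38) within 237.7 kb: MMP13 at chr9:7272514-7283331, MMP3 at chr9:7445822-7455975 and MMP10 at chr9:7502352-7510240. They encode collagenase-3, stromelysin-1 and stromelysin-2. The sequences below are the 150 bases before the RefSeq transcript start (GRCm38.p6) of these neighbors, which were called together in both CX3CL1 comparisons, and of TIMP1, an abundant inhibitor on chromosome X that was called in none. Capitals mark matches to TGANTCA, the AP-1 motif, and to TATAAA, the TATA box.
MMP13, chr9:7272364-7272513, plus strand: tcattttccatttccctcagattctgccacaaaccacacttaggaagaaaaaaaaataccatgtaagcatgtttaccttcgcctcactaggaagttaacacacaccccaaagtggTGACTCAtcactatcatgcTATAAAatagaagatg
MMP3, chr9:7445672-7445821, plus strand: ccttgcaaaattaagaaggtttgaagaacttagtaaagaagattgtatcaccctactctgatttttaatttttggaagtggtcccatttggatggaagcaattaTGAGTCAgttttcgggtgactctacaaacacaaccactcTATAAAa
MMP10, chr9:7502192-7502341, plus strand: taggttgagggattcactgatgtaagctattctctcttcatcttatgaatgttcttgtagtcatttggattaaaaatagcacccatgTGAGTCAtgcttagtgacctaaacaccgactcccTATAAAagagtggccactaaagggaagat
TIMP1, chrX:20870016-20870165, plus strand: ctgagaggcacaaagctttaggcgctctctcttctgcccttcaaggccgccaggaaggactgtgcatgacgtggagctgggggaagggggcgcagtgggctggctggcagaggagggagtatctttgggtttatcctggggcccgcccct

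RefSeq promoter windows of 300 bases (250 before and 50 after the start) were found for 8 of the 10 genes, all but MMP2 and MMP9, and were searched on both strands. The AP-1 motif was found in MMP13, MMP3 and MMP10 and in none of the other 5, against 7.81% of 32851 promoters. The same 3 windows held TATAAA, found in 13.62% of promoters, and 1.54% of promoters held both. The first base of the AP-1 match lay at position -35 in MMP13, -46 in MMP3 and -63 in MMP10, with TATAAA at -16, -7 and -29. GAAANNGAA, the core of the interferon-stimulated response element, was found in MMP13 alone, as 2 overlapping matches, and in 8.56% of promoters. The NF-kB consensus was found in none of the 8, against 8.46% of promoters. AGGAAG, an ETS motif, was found in 5 of the 8 (MMP13, MMP3, MMP14, TIMP1 and TIMP3) and in 35.35% of promoters. A match describes the letters and does not show that a factor binds there.

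**Figure D1:**
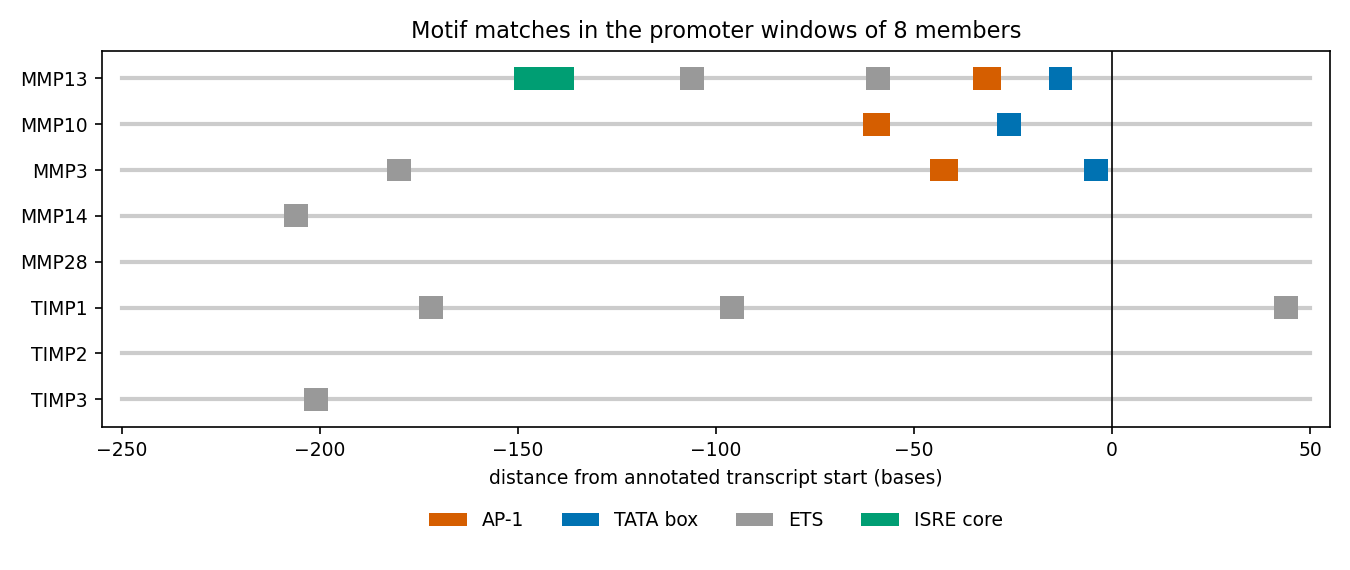
Each line is the promoter window of one gene, drawn by distance in bases from the annotated transcript start (position 0), and each colored block is a motif match on either strand. AP-1 and TATA box matches occur in the windows of MMP13, MMP10 and MMP3 and in none of the other 5.

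MMP13, the collagenase that cuts fibrillar collagen, rose with either agent and was highest with both. Its level without treatment was 2.00, 1.16 and 1.15 TPM in replicates 1, 2 and 3. It was 6.43, 4.94 and 8.38 TPM with CX3CL1 and 7.62, 4.62 and 6.52 TPM with IFN-γ. With both agents it was 26.2, 15.5 and 25.1 TPM. Every treated library lay above the untreated ones, the single-agent groups overlapped each other, and each library with both agents lay above all 9 others. The mean rose from 1.43 ± 0.489 TPM in untreated cells to 22.3 ± 5.92 TPM with both (SD, n = 3 each), a ratio of 15.5.

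MMP10, the stromelysin that can activate other pro-MMPs, rose with CX3CL1 whether or not IFN-γ was present. Its level was 0.772, 0.239 and 0.587 TPM without treatment and 0.592, 0.909 and 0.590 TPM with IFN-γ. It was 1.45, 1.92 and 2.44 TPM with CX3CL1 and 2.63, 1.97 and 2.85 TPM with both. All 6 libraries with CX3CL1 lay above all 6 without it, while the groups with and without IFN-γ overlapped.

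MMP3, the other stromelysin, was also higher with CX3CL1 in either setting, at lower levels. Untreated cells had 0.101, 0.0684 and 0.127 TPM, and IFN-γ-treated cells 0.0772, 0.0248 and 0.0245 TPM. The level was 0.755, 0.391 and 0.572 TPM with CX3CL1 and 0.440, 0.551 and 0.515 TPM with both. All 6 libraries with CX3CL1 lay above all 6 without it, at levels that stayed under 1 TPM throughout. MMP3 and MMP10 transcripts share 202 exact stretches of 31 bases, the only one of 45 pairs of these genes to share any. A stretch of 31 bases is shorter than the study's reads. Whether reads of one gene were placed on the other was not tested.

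MMP9, gelatinase B, which cuts denatured collagen and basement membrane collagen, lies on chromosome 2. Its level without treatment was 0.105, 0.0835 and 0.0534 TPM. It was 1.12, 1.02 and 1.84 TPM with CX3CL1, 0.309, 0.610 and 0.988 TPM with IFN-γ, and 0.668, 1.01 and 1.68 TPM with both. Every treated library lay above the untreated ones, and CX3CL1 libraries lay above IFN-γ libraries. Neutrophils are a known source of MMP9: the 6 neutrophil markers, of which 1 passed the filter, summed to 0 to 0.931 TPM without treatment, 0.0937 to 0.349 TPM with CX3CL1, 1.28 to 3.29 TPM with IFN-γ and 0.743 to 6.66 TPM with both, with ELANE and CSF3R at 0 in all libraries. The 9 macrophage markers, of which 3 passed, summed to 35.1 to 47.0, 37.9 to 69.4, 36.9 to 57.3 and 41.9 to 70.2 TPM in the same order. CD14 and CD68, at means of 33.1 and 13.4 TPM over all libraries, led this sum. The other members were far lower, and 6 of the 9 stayed under 1 TPM in every library. Among these, PTPRC averaged 0.0100 TPM, CSF1R 0.0056 TPM and ADGRE1 0.0011 TPM, and C1QA was at 0. All libraries came from the same cell line. Whether any neutrophils or macrophages were present, or had a part in the MMP9 values, was not tested.

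MMP28, epilysin, an MMP of epithelia, followed IFN-γ. Its level was 2.21, 1.15 and 1.08 TPM without treatment and 1.61, 0.837 and 0.981 TPM with CX3CL1. It was 4.23, 2.46 and 2.84 TPM with IFN-γ and 3.22, 2.40 and 2.74 TPM with both. All 6 libraries with IFN-γ lay above all 6 without it. MMP28 overlaps 1700020L24Rik on the opposite strand of chromosome 11.

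MMP14, the membrane-type MMP that activates pro-MMP2 and cuts collagen at the cell surface, was the most abundant of the proteases in every library. Its level was 124, 104 and 108 TPM without treatment and 100.4, 89.6 and 93.1 TPM with CX3CL1. It was 109, 102 and 93.8 TPM with IFN-γ and 103, 93.0 and 84.0 TPM with both. The CX3CL1 libraries lay below the untreated ones without overlap, and the IFN-γ libraries overlapped them. The mean MMP14 level with both agents was 0.831 of that without treatment, a difference that was not tested. MMP2, gelatinase A, was listed at 0 in 7 of 12 libraries, the 3 with both agents among them, and reached at most 0.0364 TPM.

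TIMP1, a secreted inhibitor of most MMPs, was the most abundant of the 10 genes in every group. Its level was 327, 385 and 308 TPM without treatment and 358, 411 and 379.8 TPM with CX3CL1. It was 349, 326 and 260.2 TPM with IFN-γ and 371, 350.3 and 303 TPM with both. CX3CL1 libraries overlapped the untreated ones and lay above the IFN-γ libraries.

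TIMP2, the inhibitor that works with MMP14, had a level of 323, 263 and 243.5 TPM without treatment and of 275, 256 and 189 TPM with CX3CL1. The level was 240.5, 242.4 and 191 TPM with IFN-γ and 204, 217 and 168 TPM with both. The IFN-γ libraries lay below the untreated ones, by a gap of little more than 1 TPM at its narrowest. The mean TIMP2 level with both agents was 0.710 of that without treatment, a difference that was not tested. TIMP3, an inhibitor held in the matrix, reached at most 0.310 TPM, with means of 0.125, 0.0875, 0.187 and 0.265 TPM from no treatment to both agents, and was not tested. TIMP1 lies inside Syn1 and TIMP3 inside Syn3, each on the opposite strand, and Cep295nl lies within TIMP2 on the same strand.

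**Figure D2:**
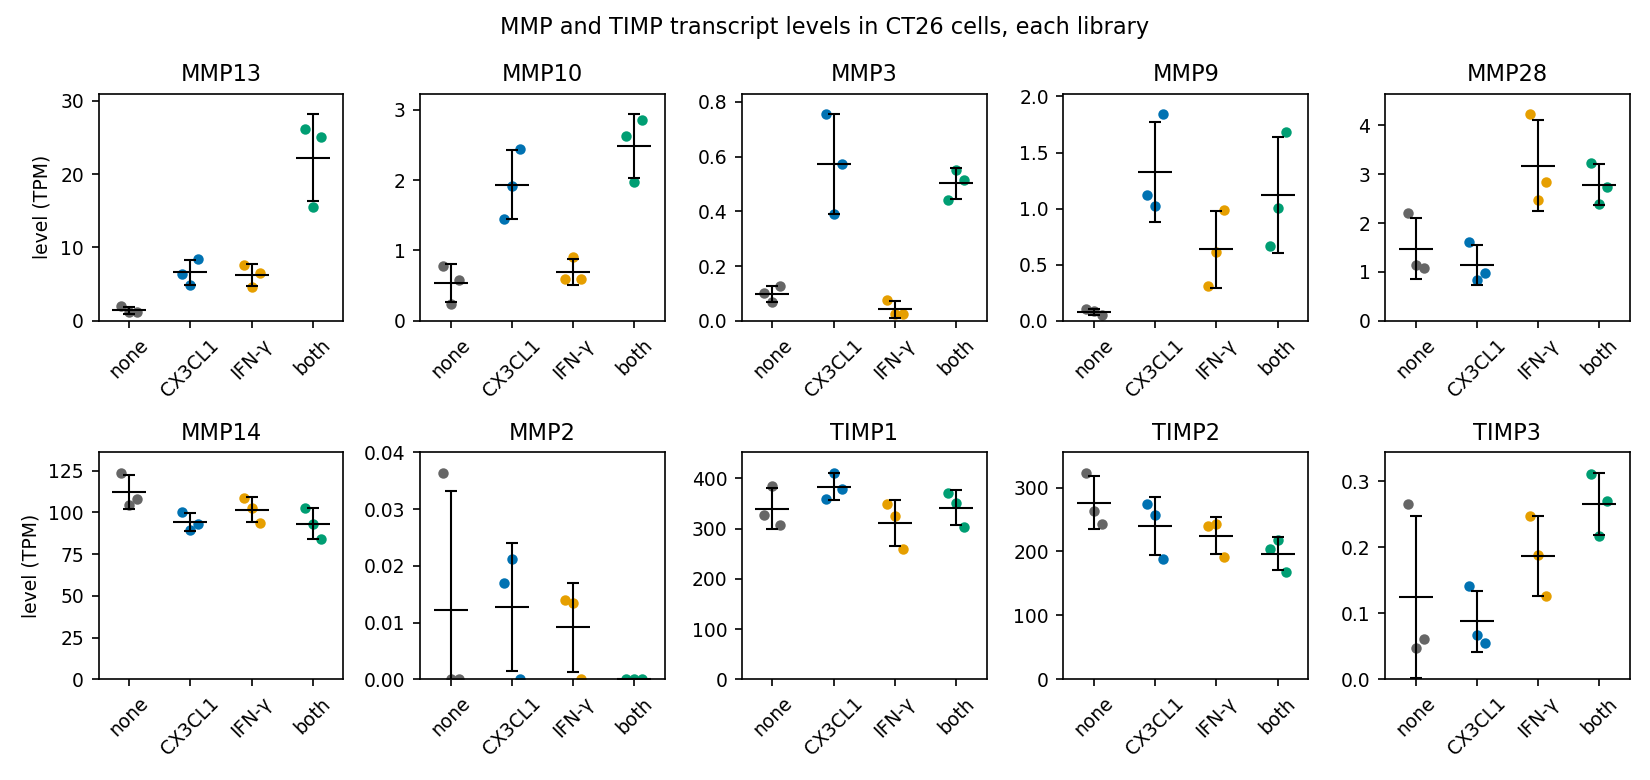
Transcript level in TPM of each of the 10 genes, with a scale of its own that starts at 0 in each panel, points for the 3 libraries of each group, and a line and bar for the mean and SD. MMP13 reaches 22.3 TPM on average with both agents, MMP10 and MMP3 are high in the CX3CL1 groups, MMP28 is high in the IFN-γ groups, and TIMP1 stays between 260.2 and 411 TPM.

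CX3CL1 against no treatment asked what the chemokine alone changes. MMP9, MMP3, MMP13 and MMP10 were higher, with ratios of mean TPM of 16.4, 5.79, 4.60 and 3.64. On the log2 scale, the difference was 1.63 for MMP13 (SE 0.23, adjusted p = 0.0021), 1.09 for MMP9 (SE 0.19, adjusted p = 0.00746), 0.94 for MMP10 (SE 0.17, adjusted p = 0.00747) and 0.51 for MMP3 (SE 0.10, adjusted p = 0.0154). Of the 8 tested, 4 were called higher and 0 lower, where 1.78% of all genes tested were called higher and 0.168% lower; 5 had an unadjusted p under 0.05. The study named these 4 MMPs from the same samples, so their count is not independent evidence of direction. MMP3 and MMP9 had also passed the filter only through groups where they were high. With no filter, limma called both (adjusted p = 0.00793 and 0.0308). Groups did not overlap for these 4 and for MMP14, against 11.2% of all genes. MMP14 (log2 difference -0.24, adjusted p = 0.522), MMP28 (-0.20), TIMP1 (0.18) and TIMP2 (-0.21) were not called.

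MMP13, MMP9 and MMP10 were called under CX3CL1 in each fit that left out 1 of the 12 libraries. MMP3 was not called without no treatment replicate 2 (adjusted p = 0.083) or 3 (0.0559), or without CX3CL1 replicate 1 (0.0813) or 3 (0.0667), nor with only the 6 compared libraries in the fit (0.0799).

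IFN-γ against no treatment, which shares the untreated libraries with the comparison above, called 2 of the 8 higher. MMP13 was higher by 1.57 on the log2 scale (SE 0.23, adjusted p = 0.000839) and MMP28 by 0.76 (SE 0.20, adjusted p = 0.0364), with ratios of mean TPM of 4.36 and 2.15. Over all genes, 5.91% were called higher and 1.94% lower, and groups did not overlap for 34.2%. They did not overlap for 4 of the 8 (MMP13, MMP28, MMP9 and TIMP2). MMP9 was not called (log2 difference 0.58, adjusted p = 0.0918), nor was TIMP2 (-0.30, adjusted p = 0.313). MMP3 (-0.08) and MMP10 (0.16), both called higher with CX3CL1, were not called with IFN-γ.

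With the replicate block, which pairs libraries of the same number, IFN-γ called 4 of the 8: MMP9 (adjusted p = 0.0162) and TIMP2, lower, (adjusted p = 0.0467) besides MMP13 and MMP28. Over all 11878 genes tested, the block raised the calls from 932 to 1929. MMP9 was also called with a pseudocount of 0.1 (adjusted p = 0.00749) and with only the compared libraries (0.0428). It had passed the filter only through the treated groups, and it was not called with no filter. MMP28 was not called with only the compared libraries (adjusted p = 0.0501) or with no filter (0.0796), nor without no treatment replicate 2 (adjusted p = 0.129) or 3 (0.163), IFN-γ replicate 1 (0.152) or 3 (0.0828), or CX3CL1+IFN-γ replicate 3 (0.0517).

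CX3CL1 was added to IFN-γ in the third comparison. MMP13 (1.67, SE 0.23, adjusted p = 0.00783), MMP10 (1.03, SE 0.17, adjusted p = 0.021) and MMP3 (0.53, SE 0.10, adjusted p = 0.047) were higher than with IFN-γ alone on the log2 scale, with ratios of mean TPM of 3.56, 3.56 and 11.9. These were 3 of the 8, against 0.345% of all genes called higher, and their groups were the only ones of the 8 that did not overlap, against 16.3% of all genes. MMP3 had passed the filter only through the groups with CX3CL1. MMP9 was not called (0.37, adjusted p = 0.975).

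The MMP13 call of this comparison was lost without CX3CL1+IFN-γ replicate 1 (adjusted p = 0.051) or 3 (0.0576). MMP10 was lost without IFN-γ replicate 1 (0.0767) or 3 (0.0983) or CX3CL1+IFN-γ replicate 1 (0.103) or 3 (0.123), and with a pseudocount of 0.1 (0.0608) or no filter (0.0555). MMP3 was lost with quantile normalization (0.0571). It was called without CX3CL1 replicate 1 or 2 and in none of the other 10 such fits, where its adjusted p reached 0.239. With only the 6 compared libraries, 0 of the 8 were called by limma (adjusted p = 0.0646, 0.0518 and 0.133 for MMP13, MMP10 and MMP3), although the differences were the same.

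IFN-γ was added to CX3CL1 in the next comparison. MMP13 rose by 1.61 (SE 0.23, adjusted p = 0.00178) and MMP28 by 0.83 (SE 0.20, adjusted p = 0.0333) on the log2 scale, with ratios of mean TPM of 3.38 and 2.44. These 2 of the 8 stood against 3.76% of all genes called higher, and they were the 2 whose groups did not overlap, against 19.5% of all genes. MMP10 (0.25), MMP9 (-0.15) and MMP3 (-0.06) were not called. MMP28 was not called with no filter (adjusted p = 0.0763), without CX3CL1 replicate 2 (0.0859) or 3 (0.105), or without CX3CL1+IFN-γ replicate 1 (0.126) or 3 (0.107).

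The interaction asks whether the effect of CX3CL1 differs with IFN-γ present. None of the 8 genes was called by limma, nor was any of all genes tested (0%), while 1 of the 8 and 273 of all 11878 had an unadjusted p under 0.05. For MMP13 the interaction was 0.03 on the log2 scale (95% interval -0.69 to 0.75): the rise with CX3CL1 was 1.63 without IFN-γ and 1.67 with it. With a pseudocount of 0.1 the MMP13 interaction was -0.33. The interval is wide enough that a moderate departure in either direction was not detectable with 3 libraries a group. For MMP9 the interaction was -0.72 (95% interval -1.31 to -0.14, unadjusted p = 0.0197, adjusted p = 1), from 1.09 without IFN-γ to 0.37 with it. Over the alternative fits the MMP9 interaction ran from -2.19 to -0.57 and was called in none. The ratio of mean MMP9 TPM with CX3CL1 was 16.4 without IFN-γ and 1.76 with it.

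CX3CL1 and IFN-γ were also compared directly, a comparison added after the data were seen. MMP3 (0.59, adjusted p = 0.0059) and MMP10 (0.78, adjusted p = 0.0187) were higher with CX3CL1, and MMP28 was lower (-0.96, adjusted p = 0.0184) on the log2 scale. MMP3 had passed the filter only through the groups with CX3CL1. Over all genes, 1.06% were called higher and 3.52% lower, and groups did not overlap for 26%. For MMP13 the difference was 0.06 (95% interval -0.45 to 0.57), and it was -0.10 without CX3CL1 replicate 3 and -0.11 without IFN-γ replicate 2. MMP9 was not called (0.51, adjusted p = 0.151; 0.0334 with the replicate block), nor was TIMP1 (0.31, adjusted p = 0.199), although neither pair of groups overlapped. MMP10 and MMP28 were lost without CX3CL1 replicate 2 (adjusted p = 0.056 and 0.0695) or 3 (0.0633 and 0.058), or without IFN-γ replicate 1 (0.0735 and 0.0776) or 3 (0.0801 and 0.056).

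**Figure D3:**
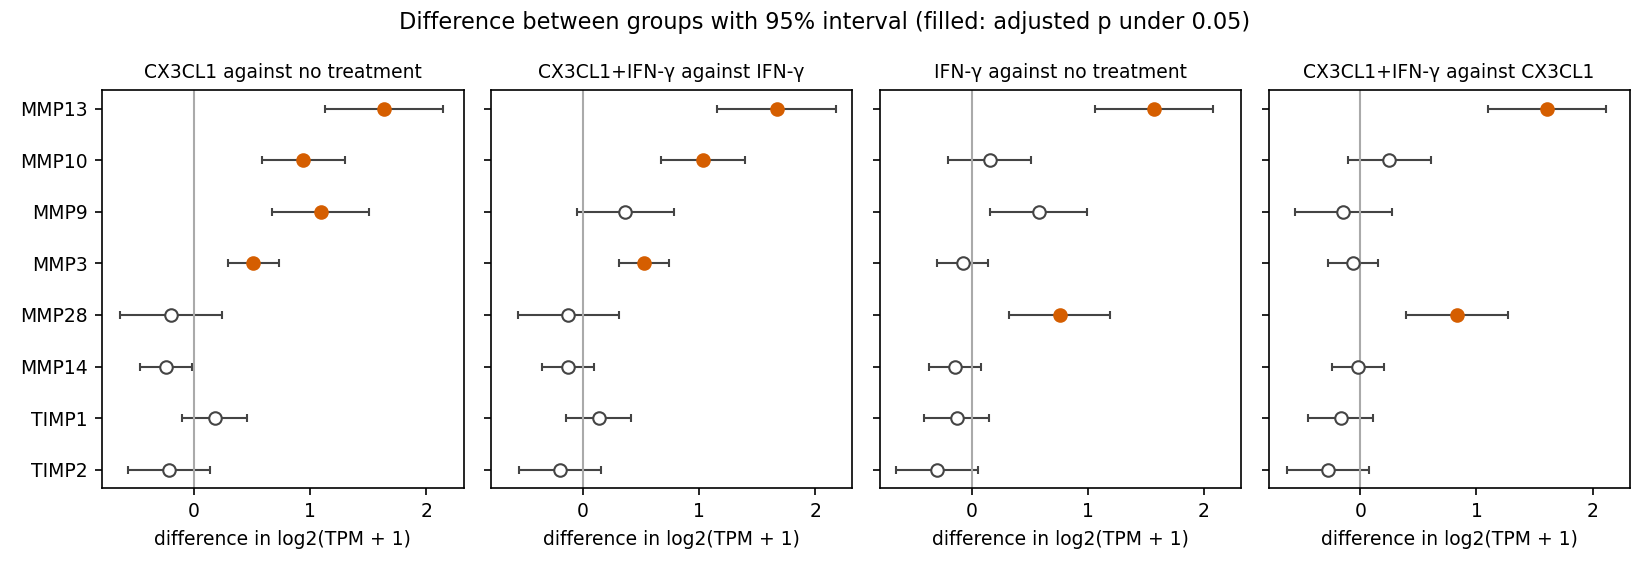
Difference between groups in log2(TPM + 1) for the 8 tested genes in 4 comparisons, with the 95% interval as a bar and filled points at an adjusted p under 0.05. MMP13 is filled in all 4 at 1.57 to 1.67, MMP10 and MMP3 only where CX3CL1 was added, MMP28 only where IFN-γ was added, and MMP14, TIMP1 and TIMP2 in none.

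Protease and inhibitor levels were compared by the sum of TPM over 7 MMPs and over 3 TIMPs. Inhibitor transcripts exceeded protease transcripts in every library. The ratio of the sums was 0.198, 0.165 and 0.202 without treatment and 0.176, 0.148 and 0.189 with CX3CL1. It was 0.206, 0.195 and 0.232 with IFN-γ and 0.236, 0.201 and 0.248 with both. The untreated libraries overlapped all 3 treated groups, and the CX3CL1 libraries lay below those of both IFN-γ groups. Libraries of equal number were set against each other where all 3 of their correlations were over 0.1, although what a number shares is not stated. The ratio was higher with IFN-γ than without treatment in 3 of 3 such pairs. It was higher with both agents than with IFN-γ alone in 3 of 3. With 3 pairs, a shared direction carries little weight. The ratio was lower with CX3CL1 than without treatment in 3 of 3, although those groups did not meet the same criterion. No test was run on these ratios. The sums rest on 3 genes: MMP14 on one side and TIMP1 and TIMP2 on the other. They treat all TIMPs alike and do not show which TIMP blocks which MMP. MMP14 over TIMP2 alone averaged 0.408 without treatment, 0.403 with CX3CL1, 0.455 with IFN-γ and 0.477 with both, with overlapping libraries.

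The makeup of the protease sum moved more than the sum. All shares here are of the sum over the 7 MMPs. MMP11 and MMP19, outside the 7, averaged 13.6 and 4.50 TPM without treatment, so shares of all MMP transcripts would be lower. MMP14 made up 96.0% to 97.5% of it without treatment, 86.8% to 90.7% with CX3CL1, 89.4% to 92.2% with IFN-γ and 71.9% to 81.3% with both. The share of MMP3, MMP9, MMP10 and MMP13 together was 1.44% to 2.31%, 8.39% to 12.3%, 5.55% to 7.75% and 16.6% to 25.8% in the same order, without overlap between any of the groups. The study had named these MMPs as raised by CX3CL1 in the same samples, so their larger share with CX3CL1 is not independent evidence. MMP13 alone made up 18.1% ± 4.12 (SD, n = 3) with both agents and 1.22% ± 0.286 (SD, n = 3) without treatment. TIMP1 over TIMP2 was 1.25 ± 0.228 without treatment, 1.64 ± 0.357 with CX3CL1, 1.38 ± 0.0581 with IFN-γ and 1.74 ± 0.117 with both (SD, n = 3 each).

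In the order of mean levels, TIMP1, TIMP2 and MMP14 came first in all 4 groups. MMP28 and MMP13 followed without treatment, at 1.48 and 1.43 TPM with overlapping libraries. MMP13 followed them in each treated group, above the next gene in all libraries, and MMP10 (1.94 TPM) and MMP9 (1.33 TPM) followed with CX3CL1, with overlapping libraries. MMP28 came directly after MMP13 in both IFN-γ groups, at 3.18 and 2.79 TPM.

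**Figure D4:**
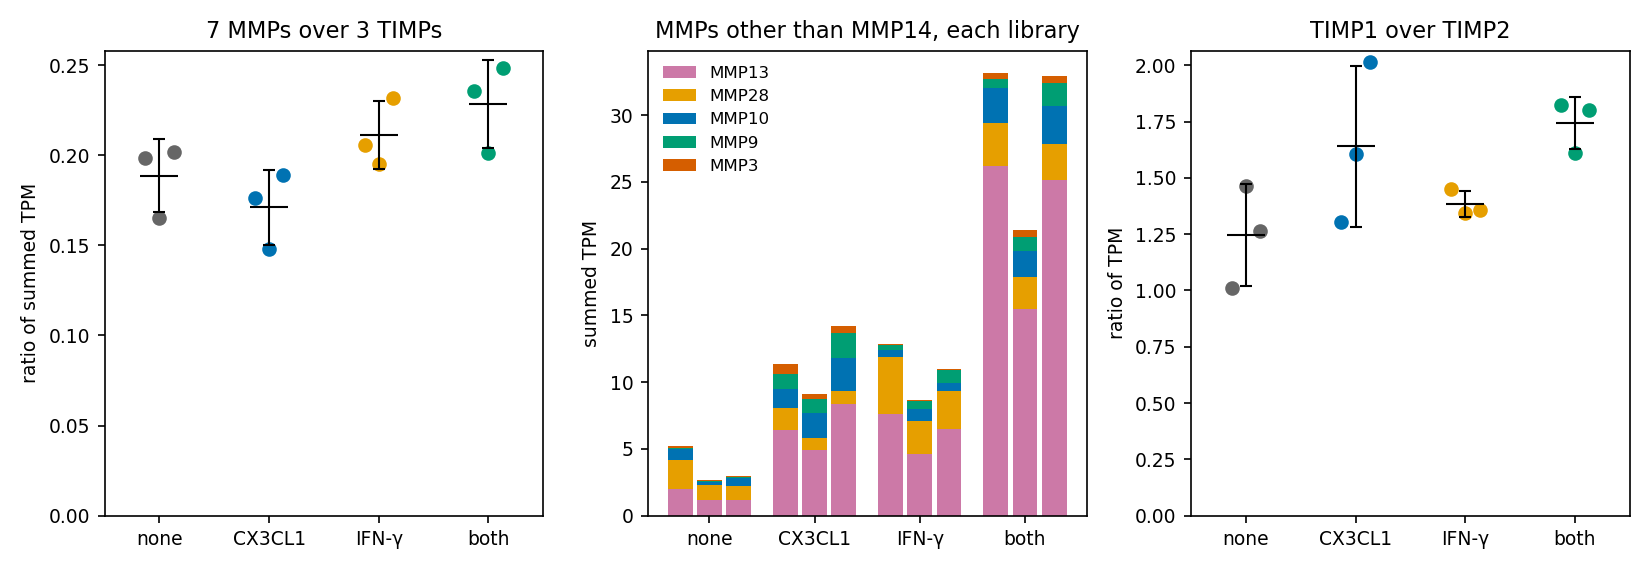
Left, summed TPM of 7 MMPs over summed TPM of 3 TIMPs. Middle, summed TPM in each library of MMP13, MMP28, MMP10, MMP9 and MMP3. These are the 7 MMPs without MMP14 and without MMP2, which reached at most 0.0364 TPM. MMPs outside the 7, such as MMP11 and MMP19, are not drawn. Right, TIMP1 over TIMP2. Points on the left and right are libraries, with mean and SD as line and bar. The ratio of sums lies between 0.148 and 0.248, and the MMP13 part of the middle bars is tallest with both agents.

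The other genes of the pathway were read from lists chosen by function. Of the 16 other MMPs, 3 passed the filter (MMP11, MMP19 and MMP23), with means of 12.98, 4.30 and 0.272 TPM, and none was called by limma in any comparison; at an unadjusted p under 0.05 there was 1, in CX3CL1 against IFN-γ. Of 21 activators and other regulators, 12 were tested. CX3CL1 raised PLAUR, the receptor of urokinase (log2 difference 0.54, adjusted p = 0.0307), and IFN-γ lowered PLAT, tissue plasminogen activator (-0.56, adjusted p = 0.0213). CD44, a hyaluronan receptor that can hold MMP9 at the cell surface, was higher with CX3CL1 than with IFN-γ (0.58, adjusted p = 0.0106). The list had 1 of 12 called in each of these 3 comparisons, where 1.78% of all genes were called higher, 1.94% lower and 1.06% higher, and 0 in the other 3, where 3, 4 and 2 had an unadjusted p under 0.05.

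All 21 transcription factors listed for MMP promoters were tested. With CX3CL1, 5 of 21 were higher, against 1.78% of all genes, and none lower: CEBPD (2.60), RELB (1.67), NFKB1 (0.93), NFKB2 (0.90) and ETS1 (0.57), on the log2 scale. None of the FOS and JUN family genes, whose proteins form AP-1, was called by limma with CX3CL1. The difference was 0.50 for JUNB (unadjusted p = 0.0228), 0.35 for FOSL1 (0.0476), which was the most abundant of them at a mean of 248 TPM with CX3CL1, and -0.30 for FOSB (0.0499). It was 0.29 for FOSL2, 0.19 for JUN, -0.04 for JUND and -0.04 for FOS. With IFN-γ, 4 of 21 were higher, against 5.91% of all genes, and none lower: RELB (1.82), JUNB (0.94), CEBPB (0.75) and ETS2 (0.59). NFKB1 was the only 1 of 21 called where CX3CL1 was added to IFN-γ (0.82, adjusted p = 0.00151), against 0.345% of all genes called higher. CEBPB was the only 1 of 21 called where IFN-γ was added to CX3CL1 (0.85, adjusted p = 0.00608). That count lies near the 3.76% of all genes called higher there. The median log2 difference of the list was 0.29 with CX3CL1, against -0.02 over all genes tested.

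The genes whose log2(TPM + 1) followed each MMP most closely over the 12 libraries were described by Pearson's r among genes that averaged 1 TPM or more; these libraries share treatment groups, which sets much of r. MMP13 was closest to IER3 (0.978), BCL3 (0.978) and CCL2 (0.977). MMP3 was closest to LRIG1 (0.949), NFKB1 (0.920) and LANCL3 (0.897), and MMP10 to ORC1 (0.934), PTGS2 (0.926) and FGFR1OP (0.925). MMP9 was closest to GDPD5 (0.927), ATP10A (0.916) and SEMA4B (0.908), and MMP28 to ZC3H7B (0.974), KCTD15 (0.972) and GNPDA1 (0.971). MMP14 was closest to BTBD2 (0.957), TIMP1 to ALDH3A1 (0.903) and TIMP2 to CEP68 (0.975).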

How the data were processed

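The study prepared strand-specific mRNA libraries and mapped the reads to mouse assembly mm10 by STAR 2.7.3a, which also counted them per gene. DESeq2 1.22.1 was used by the authors for testing, and the counts were not analysed here. The deposited values are TPM, scaled by the authors to 1000000 per library. Whether counting used strand is not given in the sources used here. The methods give a target depth, and the depth each library reached is unknown here, so precision rests on the 3 libraries per group. Doses and time came from the methods and a legend.

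Tests used R 4.3.3 and limma 3.58.1 with an intensity trend on log2(TPM + 1), all 12 libraries and no block, and were tested on simulated data. Alternatives were quantile normalization, median-ratio scaling, a filter at 1 TPM or none, a pseudocount of 0.1, no trend, a replicate block, fits to the compared libraries alone and fits that left out each library. Replicate numbers are shared by the groups' labels. Libraries of equal number deviated together for no treatment and IFN-γ (correlations 0.429, 0.460 and 0.220), CX3CL1 and IFN-γ (lowest 0.226), IFN-γ and CX3CL1+IFN-γ (lowest 0.630) and CX3CL1 and CX3CL1+IFN-γ (lowest 0.351), and not for no treatment and CX3CL1 (0.387, 0.0047 and 0.301). What a number shares is not stated.

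All 10 genes are named, with list genes that were called and the closest genes by r. The genes, lists and comparisons were chosen with earlier results of these data known. Positions came from GENCODE M21 on GRCm38, and promoters from RefSeq. Python 3.11.15 with pandas 2.3.3 and matplotlib 3.10.9 made tables and figures.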

Additional observations from a re-analysis of the deposited data

How the results depend on the processing

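Of 940 values of single genes under the alternatives, 849 kept their direction and side of the threshold, 47 lost the call, 5 gained it and 39 changed sign. The 39 belong to 13 small differences that were not called in any of these fits (lowest adjusted p 0.832), and no called value changed sign. For CX3CL1 against no treatment, 2 genes were called with a mean of at least 1 TPM, which leaves out MMP3 and MMP9, instead of 4. For IFN-γ against no treatment, 1 was called with no filter and 4 with the replicate block, instead of 2, and 1 to 2 with 1 library left out. With CX3CL1 added to IFN-γ, 0 were called with only the compared libraries instead of 3, and 0 to 3 with 1 library left out. With IFN-γ added to CX3CL1, 1 was called with no filter instead of 2, and 1 to 2 with 1 library left out. For CX3CL1 against IFN-γ, 1 to 3 were called with 1 library left out. The replicate block changed no other call of these genes than MMP9 and TIMP2 under IFN-γ and MMP9 between CX3CL1 and IFN-γ.

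Over all genes, calls ran from 152 to 455 around 232 for CX3CL1, 530 to 1929 around 932 for IFN-γ, 16 to 95 around 43 for CX3CL1 added to IFN-γ, 270 to 1369 around 558 for IFN-γ added to CX3CL1, 185 to 1601 around 544 for CX3CL1 against IFN-γ, and 0 to 52 around 0 for the interaction; the highest of each came with the replicate block. With all MMP and TIMP symbols, the mean ratio of summed TPM was 0.218, 0.194, 0.2503 and 0.260 for no treatment, CX3CL1, IFN-γ and both, instead of 0.189, 0.171, 0.211 and 0.228. The mean log2(TPM + 1) of the MMPs minus that of the TIMPs was -4.10, -3.54, -3.58 and -3.11 in the same order; this measure weighs low genes as much as MMP14, and CX3CL1 then lies above no treatment, where the ratio of sums lies below it. MMP3, MMP9 and MMP10 lie near or under 1 TPM, where differences on this scale depend most on the pseudocount.

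With 1 library left out, the log2 differences that changed sign ran as follows. MMP28 ran from -0.35 to 0.0025 for CX3CL1 against no treatment and from -0.25 to 0.0503 for CX3CL1 added to IFN-γ. For IFN-γ added to CX3CL1, MMP14 ran from -0.0918 to 0.0505, MMP3 from -0.15 to 0.022 and MMP9 from -0.33 to 0.0123. For CX3CL1 against IFN-γ, TIMP2 ran from -0.0273 to 0.25 and MMP13 from -0.11 to 0.23. The interaction ran from -0.14 to 0.27 for MMP13, -0.0304 to 0.24 for MMP10, -0.15 to 0.13 for TIMP2, -0.0692 to 0.0985 for MMP3, -0.13 to 0.25 for MMP28 and -0.16 to 0.0474 for TIMP1. It also changed sign with a pseudocount of 0.1 for MMP13 (-0.33) and MMP10 (-0.0598), with median-ratio scaling for TIMP2 (-0.0096) and MMP3 (-0.0047), and with quantile normalization for MMP3 (-0.0729). With IFN-γ added to CX3CL1 and for IFN-γ alone, MMP28 lost its call with no filter; with CX3CL1 added to IFN-γ, MMP10 lost it with a pseudocount of 0.1 or no filter and MMP3 with quantile normalization.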

Other observations

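Genes of other metalloproteinases and of matrix proteins, from lists chosen with earlier results known, also differed between groups. Of 30 ADAM and ADAMTS genes, 12 were tested. IFN-γ raised ADAM8 (log2 difference 1.02, adjusted p = 0.00859 by limma), 1 of 12 against 5.91% of all genes called higher. It lowered ADAM12 (-0.78, adjusted p = 0.00321) and ADAM33 (-1.06, adjusted p = 0.0133), 2 of 12 against 1.94% called lower. ADAM8 was also higher where IFN-γ was added to CX3CL1 (0.82, adjusted p = 0.0413), 1 of 12 against 3.76% called higher. Both counts for ADAM8 lie near the share of all genes. None of the 12 was called in the other comparisons.

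Of 29 genes of matrix proteins that MMPs can cut, 20 were tested. CX3CL1 lowered COL1A2, a chain of type I collagen (-0.50, adjusted p = 0.0408), 1 of 20 against 0.168% of all genes called lower. IFN-γ lowered COL3A1 (-1.61), COL4A5 (-0.82), SPARC (-0.54) and COL7A1 (-0.48) and raised none. These were 4 of 20, against 1.94% of all genes called lower. The list median was -0.28, against 0.03 over all genes tested. Where IFN-γ was added to CX3CL1, COL3A1 (-1.31) and COL4A5 (-0.80) were lower and the proteoglycan gene DCN (0.95) was higher. The 1 of 20 called higher lies near the 3.76% of all genes, and 558 of 11878 genes were called in either direction. COL4A5 was higher with CX3CL1 than with IFN-γ (0.66), 1 of 20 against 1.06% of all genes. None of the 20 was called where CX3CL1 was added to IFN-γ.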
